A study of Mus musculus with 10 samples.

Results

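Creatine kinases and their partners in adenylate energy buffering were followed across cultured mouse myotubes as a set of 8 genes. The set was listed by gene name, with earlier results of these data known: Ckm, Ckb, Ckmt1, Ckmt2, Ak1, Ampd1, Slc6a8 and Slc25a4. These genes were read by 11 probes, out of 19057 genes with a symbol and 45281 probes on the array.

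Creatine kinases move a phosphate group between ATP and creatine, so that phosphocreatine holds ATP steady when a muscle fibre starts to contract. The cytosolic enzyme is a dimer of muscle-type (Ckm) or brain-type (Ckb) subunits, and Ckb, which is made in myoblasts, gives way to Ckm as muscle cells differentiate. Ckmt2, the sarcomeric mitochondrial creatine kinase of striated muscle, and Ckmt1, its ubiquitous relative, lie between the mitochondrial membranes, where they charge creatine with mitochondrial ATP. Slc6a8 brings creatine into the cell, and Slc25a4 exchanges ADP for ATP across the inner mitochondrial membrane. Ak1, the cytosolic adenylate kinase, makes ATP and AMP from ADP, and Ampd1, the AMP deaminase of skeletal muscle, removes that AMP as IMP.

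Myotubes of IM2, a mouse muscle cell line, were fused for 4 days, given no treatment, and their RNA was hybridised to Illumina bead arrays. All of them expressed PABPN1-FLAG, a tagged form of a nuclear protein that binds poly(A) tails and whose alanine expansions cause oculopharyngeal muscular dystrophy. The 2 arrays labelled WTA carried the wild type protein, the 3 labelled WTD carried it at a low level, and the 3 labelled D7E carried a mutant at a level described as similar to WTA. There was no group without introduced PABPN1, and the promoter that drove it, the size of the mutant's expansion and whether a group was 1 clone are not given in the sources used here. Nothing says that the arrays of a group came from separate cultures, so a p-value covers only how much these arrays vary, which may be technical.

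Between 13653 and 17565 probes were detected per array, that is, had a detection p under 0.05, the chance of such a signal among background beads. Both ends lay in WTD, the lowest in WTD 2 and the highest in WTD 3. The 95th percentile of signal over the median was 3.20 in WTD 2, 8.37 in WTD 3 and 4.84 in WTD 1. It was 5.09 and 6.48 in WTA and 6.67 to 8.21 in D7E. The number of arrays limits the precision of every value. The WTD signals stand in another probe order in the deposited table, and every WTD value below rests on restoring that order. Detection p-values of WTD 1 and WTD 3 did not match their signals and were estimated. The single Pabpn1 probe read 9.24 and 9.18 in WTA, 10.24, 10.26 and 9.87 in WTD, and 9.16, 9.58 and 10.58 in D7E on the log2 scale, so the arrays labelled low stood above WTA (difference 0.89 ± 0.19 (SE), limma adjusted p = 0.0552). It is not known here whether the probe detects the introduced transcript. All 17 skeletal myotube markers on the array were detected on all 8 arrays, among them the sarcomere and calcium-handling genes of the list, and their summed linear intensity was 248687 to 265200 in WTA, 240384 to 253643 in WTD and 245124 to 252535 in D7E. Adipocyte, endothelial, macrophage and brain lists had 0 to 2 of 4 genes detected on any array.

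The sequences upstream of Ckm, Ckb and Ckmt2 are shown because these 3 genes carry the largest differences between creatine kinases below. They are the 250 bases before the annotated start in RefSeq on mouse build GRCm38.p6, 5′ to 3′ on each gene's strand. Capitals mark 2 motifs searched on both strands, the E-box CANNTG bound by myogenic factors and a MEF2 core, which is CTA and TAG with any 4 bases between them. Ckm lies at chr7:19410844-19411093 on the plus strand, Ckb at chr12:111672339-111672588 on the minus strand and Ckmt2 at chr13:91876886-91877135 on the minus strand.
Ckm: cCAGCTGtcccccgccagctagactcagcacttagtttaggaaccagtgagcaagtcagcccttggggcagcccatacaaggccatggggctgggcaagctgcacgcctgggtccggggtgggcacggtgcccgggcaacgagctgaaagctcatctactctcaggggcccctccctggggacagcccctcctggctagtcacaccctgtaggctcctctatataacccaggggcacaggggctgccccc
Ckb: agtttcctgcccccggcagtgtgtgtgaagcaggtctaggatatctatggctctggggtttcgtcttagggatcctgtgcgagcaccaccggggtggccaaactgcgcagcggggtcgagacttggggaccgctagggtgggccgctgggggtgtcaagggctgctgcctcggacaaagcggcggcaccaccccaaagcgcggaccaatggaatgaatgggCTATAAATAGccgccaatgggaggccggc
Ckmt2: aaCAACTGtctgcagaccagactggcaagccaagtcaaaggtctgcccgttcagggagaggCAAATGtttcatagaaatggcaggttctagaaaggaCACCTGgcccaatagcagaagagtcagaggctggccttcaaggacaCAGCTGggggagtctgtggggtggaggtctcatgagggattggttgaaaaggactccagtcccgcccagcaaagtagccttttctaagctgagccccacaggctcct

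The Ckmt2 window held 4 E-boxes, the Ckm window 1, which starts 249 bases before the start site, and the Ckb window none. The MEF2 core was found in the Ckb window only among these 3, 29 bases before the start, where its letters overlap the TATA-like run TATAAA. Of 32851 RefSeq promoter windows of the same length, 66.2% held at least 1 E-box and 3.20% the MEF2 core. The ERR half-site AAGGTCA was in none of the 3 windows and in 4.08% of all windows, and a loose CArG pattern, CC and GG with any 6 bases between them, which can overlap itself, matched 5 times in Ckm and 2 times each in Ckb and Ckmt2, with 67.1% of all windows holding it. A match is a run of letters and not evidence of binding. Of the 8 genes 6 had an entry in the promoter table, and Ampd1 and Slc6a8 did not.

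Ckmt2, the mitochondrial creatine kinase of muscle, was the gene of the set that fell. It was lower in both WTD and D7E than in WTA, on both of its probes, by a little over 1 on the log2 scale. No other member passed the threshold in any comparison. The brain-type subunit Ckb stood higher in WTD and D7E arrays than in WTA arrays, and the muscle-type subunit Ckm stood lower in D7E, except with median centring, both without passing.

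Levels are log2 intensities after background correction and quantile normalization of the 8 arrays together, on which 1 unit is a doubling. On the first Ckmt2 probe, ILMN_2698052, WTA read 11.51 and 11.31, WTD read 10.37, 10.19 and 10.39, and D7E read 10.08, 10.03 and 10.61. On the second, ILMN_2817864, WTA read 11.30 and 11.29, WTD 10.13, 9.93 and 10.27, and D7E 9.86, 9.73 and 10.38. Both WTA arrays lay above all 6 others on either probe, WTD and D7E overlapped, and D7E 3 was the highest of the 6 on both. The lowest WTA value of either probe was 11.29 and the highest value of the other groups was 10.61.

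In WTD against WTA the first probe fell by 1.08 ± 0.18 (SE; 95% interval -1.48 to -0.68, limma adjusted p = 0.0202) and the second fell by 1.17 ± 0.18 (-1.58 to -0.77, adjusted p = 0.0151). These are 2.12-fold and 2.26-fold lower intensities. An adjusted p is the p-value of limma's eBayes test after Benjamini-Hochberg adjustment over all probes tested, and the threshold was 0.05. In D7E against WTA the probes fell by 1.16 ± 0.21 (-1.63 to -0.70, adjusted p = 0.0488) and by 1.31 ± 0.21 (-1.78 to -0.84, adjusted p = 0.0332), or 2.24-fold and 2.48-fold. Both comparisons use the same 2 WTA arrays and are not independent of each other. D7E minus WTD was -0.08 (-0.47 to 0.32, adjusted p = 0.945) and -0.12 (-0.54 to 0.30, adjusted p = 0.911), values that read 0.70 and 0.65 with median centring, which is 0.26 and 0.22 relative to its shift of all probes by 0.44.

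**Figure D1:**
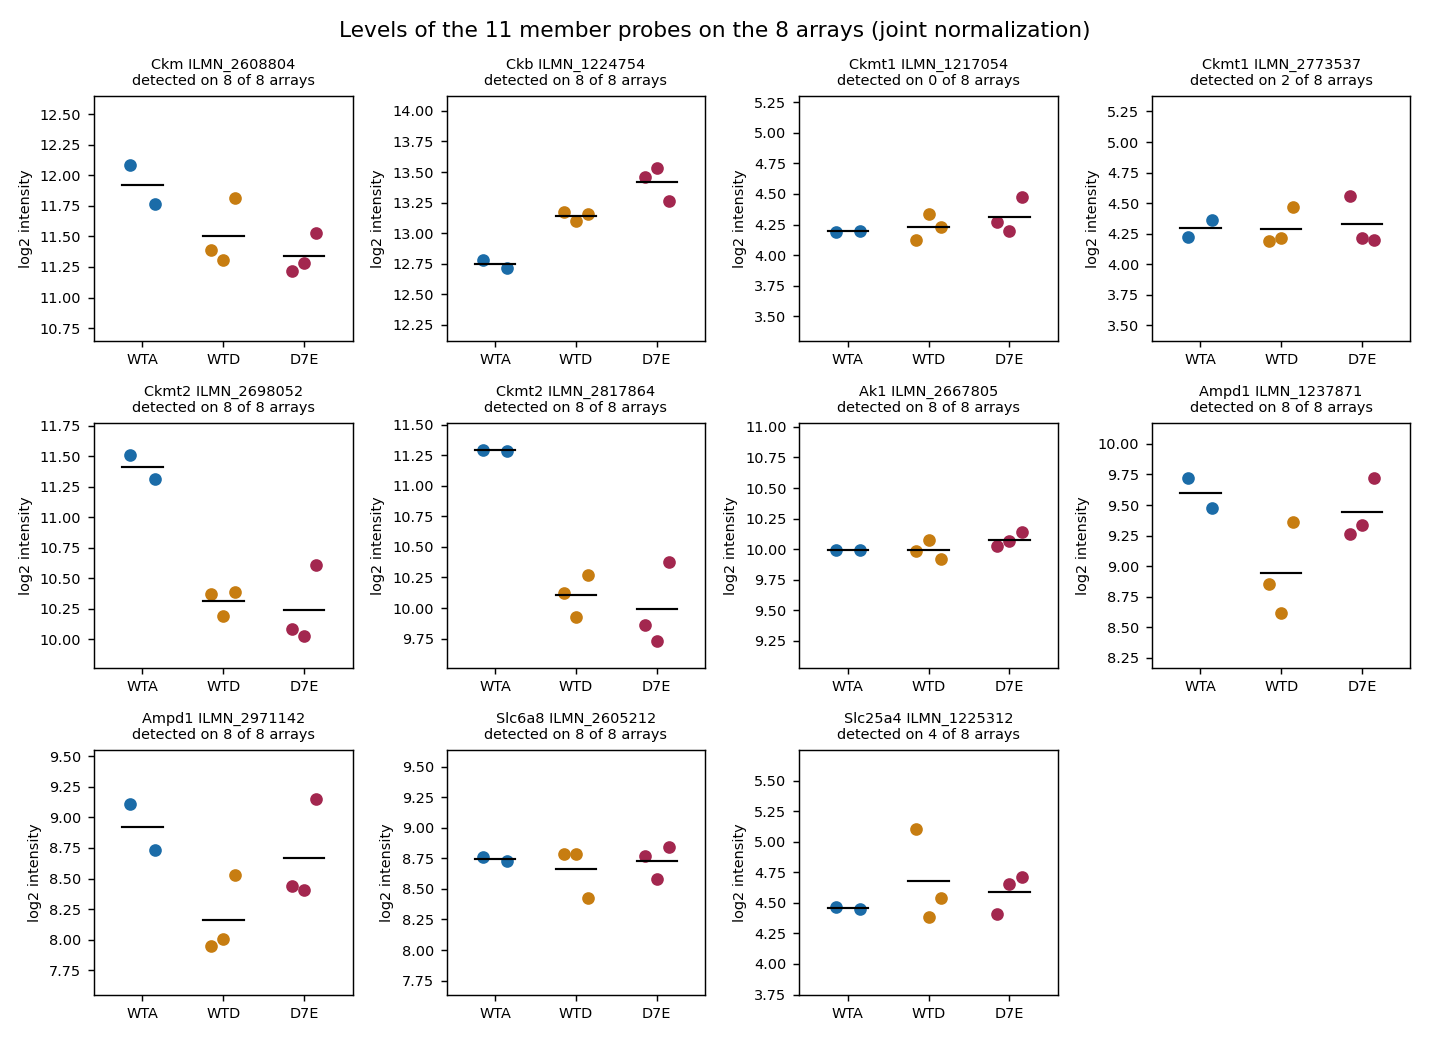
Normalized log2 intensity of each of the 11 probes (vertical axes) on the 8 arrays, grouped as WTA, WTD and D7E, with points for arrays and bars for group means. Both Ckmt2 panels show the WTA arrays at 11.29 or above and all others at 10.61 or below, while the Ak1 points stay within 0.23 of each other.

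The Ckmt2 calls rested on few arrays. In WTD against WTA both probes lost their call without WTA 1, WTA 2, WTD 1 or WTD 2 (adjusted p up to 0.258 and 0.161) and kept it without WTD 3, with differences of -0.98 to -1.19 and -1.08 to -1.27. In the D7E comparison both lost it without WTA 1, WTA 2, D7E 1 or D7E 2 (adjusted p up to 0.298 and 0.251) and kept it without D7E 3, with differences of -1.06 to -1.34 and -1.17 to -1.49. With arrays centred on their medians in place of quantile normalization the differences were -1.28 and -1.38 in WTD and -0.58 and -0.73 in D7E, and no call was left. That centring moved the median of all probes by -0.10 in WTD against WTA and by 0.31 in D7E against WTA, and relative to this shift Ckmt2 read -1.18 and -1.28 in WTD and -0.89 and -1.04 in D7E. Testing every probe without a filter also ended the calls (adjusted p = 0.0865 and 0.0867 in WTD, 0.160 and 0.144 in D7E), as did, in D7E, leaving out background correction (0.0618 and 0.0567) or using the authors' values (0.0597 and 0.0528), and, in WTD, leaving out WTD 1 together with WTD 3 (0.125 and 0.0961). In bulk RNA fewer cells of a type and less RNA per cell cannot be told apart.

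Markers of other cells were summed in the same groups. The summed linear intensity of 7 fibroblast markers, of which 3 to 5 were detected, was 2671 to 3185 in WTA, 1785 to 2101 in WTD and 1996 to 2806 in D7E, so WTD lay below WTA and D7E overlapped both. The brightest, Col1a1, made up most of this sum, with mean levels of 11.20 in WTA, 10.45 in WTD and 10.85 in D7E. Col3a1 was also lower (8.11, 7.29 and 7.98 on its brighter probe), while Col1a2 went the other way (7.65, 7.97 and 7.90). That of 6 markers of dividing myoblasts, with 2 to 4 detected, was 195 to 199 in WTA, 180 to 211 in WTD and 141 to 152 in D7E, so D7E lay below both others. In limma's test 0 markers of either list passed in any comparison. At an unadjusted p under 0.05 were 3 of 3 tested myoblast markers in D7E against WTA, beside 15.1% of all probes. All 3 were lower, with a median of -0.68. The count was 2 of 3 in D7E against WTD (8.34% of all probes) and 1 of 3 in WTD against WTA (12.5%). For fibroblast markers it was 0 of 5, 2 of 4 and 2 of 4 in the same order. Of 5 smooth muscle markers 3 were detected on each array, with sums of 25196 to 29747 in WTA, 28328 to 32003 in WTD and 26784 to 28425 in D7E, which overlap. Among them 1 of 3 tested passed, Tagln, an actin-binding protein, which rose by 1.42 in WTD (adjusted p = 0.0119) and by 1.40 in D7E (adjusted p = 0.0197) against WTA, while the smooth muscle actin Acta2 read 0.16 and 0.02 on its brightest probe and the list medians were 0.16 and 0.02. Their part in the Ckmt2 differences was not tested.

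Ckmt1, the mitochondrial isoform of other tissues, was at background. Its probe ILMN_1217054 was detected on 0 of 8 arrays and read 4.13 to 4.48, and ILMN_2773537 was detected on 2 of 8, 1 in WTD and 1 in D7E, and read 4.19 to 4.56. The second entered the fit of D7E against WTD only, with a difference of 0.04 ± 0.17 (SE; limma adjusted p = 0.974). Ckmt2 was therefore the mitochondrial creatine kinase that these arrays measured above background.

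The cytosolic subunits were among the brightest probes of the array. Of 11415 probes detected on all 8 arrays, the Ckb probe was brighter than 99.2%, the Ckm probe than 96.6% and the Ckmt2 probes than 93.1% and 92.1%. These ranks place each probe among all probes and do not order the genes by abundance, since probes differ in brightness per transcript.

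Ckb read 12.78 and 12.71 in WTA, 13.17, 13.10 and 13.16 in WTD and 13.46, 13.53 and 13.26 in D7E. The 3 groups did not overlap, with WTA lowest and D7E highest. In WTD against WTA the difference was 0.41 ± 0.17 (SE; 95% interval 0.03 to 0.79, limma adjusted p = 0.353), and in D7E against WTA it was 0.66 ± 0.17 (0.28 to 1.04, adjusted p = 0.118). Neither passed the threshold, although Ckb did pass in WTD against WTA without background correction (0.41, adjusted p = 0.0419) and in D7E against WTA with median centring (1.26, adjusted p = 0.0067) or with a trended, robust variance (0.66, adjusted p = 0.0190). D7E minus WTD was 0.27 ± 0.15 (-0.06 to 0.60, adjusted p = 0.675).

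Ckm read 12.08 and 11.76 in WTA, 11.39, 11.31 and 11.81 in WTD and 11.22, 11.28 and 11.52 in D7E. WTD 3 lay above the lower WTA array, so those groups overlapped, while all 3 D7E arrays lay below both WTA arrays. The difference from WTA was -0.42 ± 0.21 in WTD (SE; 95% interval -0.88 to 0.05, limma adjusted p = 0.463) and -0.58 ± 0.19 in D7E (-0.99 to -0.17, adjusted p = 0.187). The WTD value was -0.26 without WTA 1 and -0.59 without WTD 3. With median centring the D7E value turned to 0.01, which is -0.30 relative to the shift of all probes. D7E minus WTD was -0.16 (adjusted p = 0.846) and 0.61 with that centring, or 0.17 relative to the shift.

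Subtracting probes on the same array takes out whatever scales all intensities of that array. The pairs were chosen after the values were seen, so they are given without a test. Ckb minus the first Ckmt2 probe was 1.27 and 1.40 in WTA, 2.80, 2.91 and 2.77 in WTD and 3.37, 3.50 and 2.65 in D7E. All 6 WTD and D7E arrays lay above WTA, with group means of 1.34 ± 0.09 (SD, n = 2), 2.83 ± 0.07 (SD, n = 3) and 3.17 ± 0.46 (SD, n = 3). The balance between the Ckb and Ckmt2 probes thus differed from WTA by 1.49 in WTD and 1.84 in D7E, and in the deposited signals, with no background correction or normalization, by 1.49 and 1.80. Ak1 minus Ckmt2 differed from WTA by 1.09 in WTD and 1.25 in D7E, and Slc6a8 minus Ckmt2 by 1.01 and 1.15. Ckmt2 thus also read lower against members other than Ckb.

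Ckb minus Ckm was 0.70 and 0.95 in WTA, 1.78, 1.79 and 1.34 in WTD and 2.24, 2.25 and 1.74 in D7E, and WTA again lay below all others. Ckm minus Ckmt2 was 0.57 and 0.45 in WTA and 0.91 to 1.42 on the other 6 arrays, so Ckmt2 stood further from its WTA value than Ckm did. Only the change of such a difference between arrays can be read, not its size, since each probe has its own brightness.

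**Figure D2:**
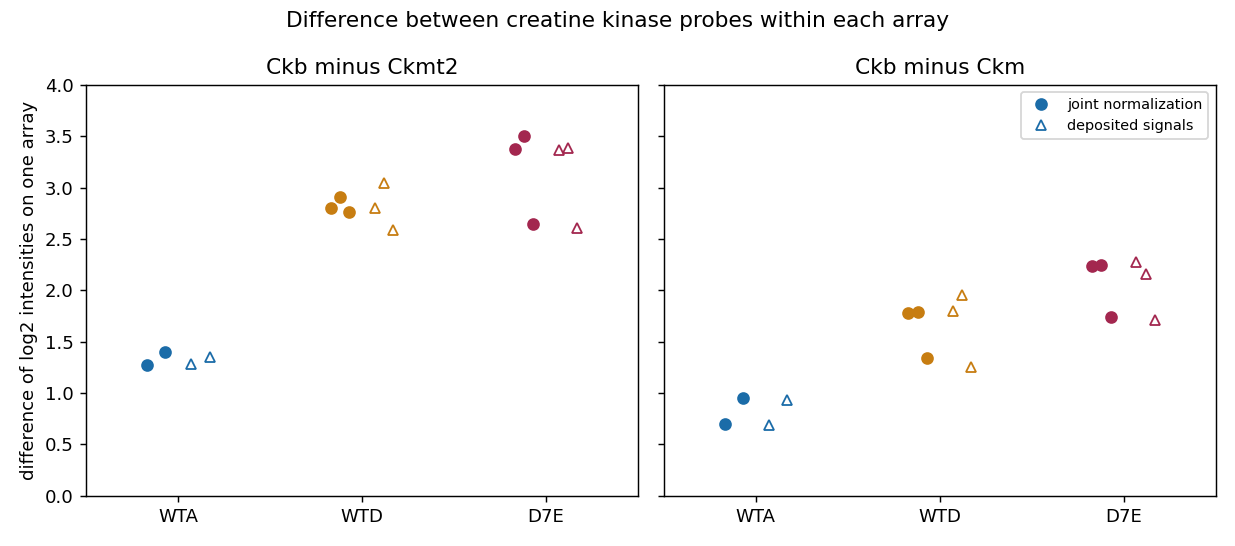
Difference of log2 intensity between creatine kinase probes on the same array (vertical axes), Ckb minus Ckmt2 and Ckb minus Ckm, for each array of WTA, WTD and D7E, from jointly normalized values (filled points) and deposited signals (triangles). The WTA arrays lie lowest in both panels, and in the first the normalized values are 1.27 and 1.40 against 2.65 to 3.50.

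Slc6a8, the creatine transporter, read 8.76 and 8.73 in WTA, 8.78, 8.78 and 8.42 in WTD and 8.77, 8.58 and 8.84 in D7E. The groups overlapped, and WTD 3 was lowest. The difference from WTA was -0.08 (95% interval -0.50 to 0.34) in WTD and -0.01 (-0.39 to 0.36) in D7E, with limma adjusted p = 0.921 and 0.980, and its sign varied between alternatives.

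Ak1, which links ADP to ATP and AMP, was the steadiest member detected on all arrays, with a range of 0.23 over 8 arrays. It read 9.99 and 9.99 in WTA, 9.99, 10.07 and 9.92 in WTD and 10.02, 10.07 and 10.14 in D7E. The D7E arrays lay just above WTA, but by 0.09 ± 0.16 (SE; limma adjusted p = 0.845). The 95% interval of WTD minus WTA was -0.38 to 0.38.

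Ampd1, the next step of AMP removal, read lower in the arrays labelled WTD than in WTA, without passing the threshold. Its probe ILMN_1237871 read 9.72 and 9.47 in WTA, 8.85, 8.62 and 9.36 in WTD and 9.26, 9.34 and 9.72 in D7E. Its probe ILMN_2971142 read 9.11 and 8.74 in WTA, 7.95, 8.01 and 8.53 in WTD and 8.44, 8.41 and 9.15 in D7E. On both probes WTD lay below WTA without overlap, in a comparison where 29.5% of all probes did not overlap. WTD 3 was the highest WTD array, and D7E overlapped both groups.

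WTD minus WTA was -0.64 ± 0.23 (SE; 95% interval -1.15 to -0.13, limma adjusted p = 0.275) on the first Ampd1 probe and -0.75 ± 0.22 (-1.24 to -0.26, adjusted p = 0.176) on the second, and neither passed. Without WTD 3 the second probe read -0.92 and passed (adjusted p = 0.0468). Leaving out 1 array at a time moved the first probe between -0.85 and -0.48 and the second between -0.94 and -0.56. WTD 3 was thus not the array that moved the second probe most. D7E minus WTA was -0.16 (-0.59 to 0.28) and -0.26 (-0.80 to 0.28), and with median centring they read 0.37 and 0.23, or 0.06 and -0.08 relative to the shift of all probes. Leaving out 1 array moved them between -0.04 and -0.07 (without WTA 1) and -0.29 and -0.50 (without D7E 3). D7E minus WTD was 0.50 ± 0.21 (0.04 to 0.95, adjusted p = 0.556) and 0.50 ± 0.23 (lower bound 0.01, adjusted p = 0.587), with 0.71 and 0.68 without WTD 3, 0.33 on the first without WTD 2 and 0.26 on the second without D7E 3.

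Slc25a4, the ADP/ATP exchanger of heart and muscle, was close to background on its probe. It was detected on 4 of 8 arrays, 0 in WTA, 2 in WTD and 2 in D7E, and read 4.46 and 4.45 in WTA, 5.11, 4.39 and 4.54 in WTD and 4.41, 4.66 and 4.71 in D7E. The groups overlapped, with differences from WTA of 0.19 ± 0.21 in WTD and 0.14 ± 0.18 in D7E (SE; limma adjusted p = 0.789 and 0.758). This dim probe limits what can be said of the gene in these myotubes.

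**Figure D3:**
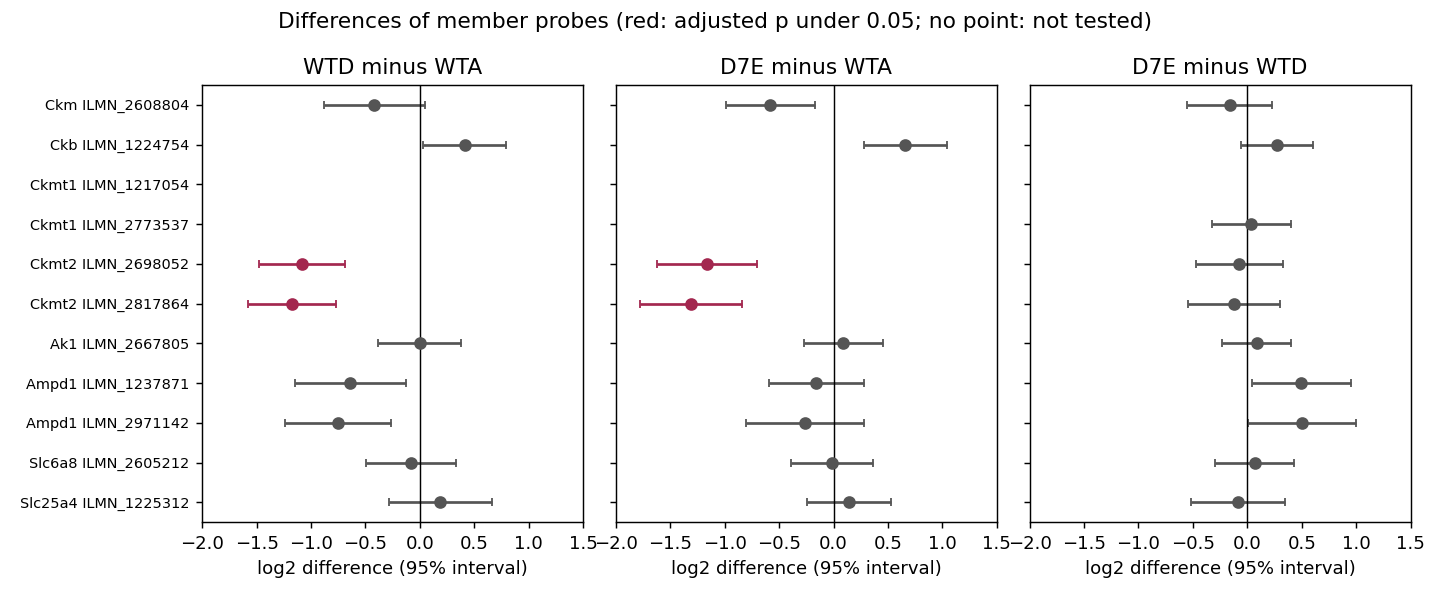
Log2 difference of each tested probe of the 8 genes (horizontal axes) with its 95% interval (bars), for WTD minus WTA, D7E minus WTA and D7E minus WTD. Red marks probes past the limma threshold, and these are the 2 Ckmt2 probes in both comparisons with WTA.

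Counted over the set, 2 of the 9 probes tested passed in WTD against WTA, where 1.23% of all 17071 probes tested did. Both were lower, as were 0.533% of all probes. Of the 9 tested in D7E against WTA 2 passed, again lower, against 0.423% of 16802 in either direction and 0.19% lower, and in D7E against WTD 0 of 10 passed limma's threshold, against 0.00566% of 17655, which is 1 probe. At an unadjusted p under 0.05 the counts were 5, 4 and 2 probes, against 12.5%, 15.1% and 8.34% of all probes. The called probes all belong to 1 gene. Read as 1 probe per gene, the median difference of the members was -0.08, -0.01 and 0.05, beside -0.02, -0.004 and 0.01 over all probes.

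The arrays of the compared groups did not overlap for 5 of 9 probes in WTD against WTA, where 29.5% of all probes did not, namely those of Ckb, Ckmt2 and Ampd1. For D7E and WTA it was also 5 of 9, beside 32.5% of all probes, namely those of Ckm, Ckb, Ckmt2 and Ak1. In D7E against WTD it was Ckb alone, 1 of 10 beside 14.3%. The filter for testing asked for detection on at least 2 of the arrays compared, and it left out both Ckmt1 probes in the comparisons with WTA and 1 of them in D7E against WTD.

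The wider pathway was read from 64 genes in 7 roles, of which 58 were on the array. In WTD against WTA 0 of 47 tested genes rose and 2 fell, where 1.23% of all probes passed, with 10 at an unadjusted p under 0.05 beside 12.5% of all probes. The median difference was -0.16, beside -0.02 over all probes. Between D7E and WTA 0 of 49 passed limma's threshold (13 at an unadjusted p under 0.05, beside 15.1% of all probes) and the median was -0.03, and in D7E against WTD 0 of 48 passed (5 unadjusted, beside 8.34%) with a median of 0.10. Median centring moved these medians to -0.33, 0.43 and 0.71, beside shifts of all probes of -0.10, 0.31 and 0.44.

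Ak4, a mitochondrial matrix adenylate kinase, was 1 of the 2 that fell. It read 5.80 and 6.27 in WTA, 4.42, 4.69 and 4.81 in WTD and 4.79, 4.98 and 5.21 in D7E, and it was detected on 7 of 8 arrays. Both WTA arrays lay above all others. It fell by 1.27 ± 0.20 in WTD (SE; limma adjusted p = 0.0163) and differed by -1.10 ± 0.21 in D7E (adjusted p = 0.055, and past the threshold in 4 of 16 alternatives). Close to background the size depends on the correction, and without it the WTD value was -0.39 and no longer passed (adjusted p = 0.0778), nor did it in the authors' values (-0.51, adjusted p = 0.0571) or with offset 50 (-0.67, adjusted p = 0.0501). In D7E it was -0.39 without background correction.

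The other was Nt5e, the ecto-enzyme that turns AMP into adenosine outside the cell, whose brighter probe read 6.43 and 6.77 in WTA, 5.24, 5.53 and 5.55 in WTD and 5.68, 5.22 and 6.23 in D7E. WTA lay above the rest, and D7E 3 came nearest to it. It fell by 1.10 ± 0.19 in WTD (SE; limma adjusted p = 0.0235), with -0.33 on its second probe, and differed by -0.91 ± 0.27 in D7E (adjusted p = 0.171). Like Ckmt2, Ak4 and Nt5e lost their WTD calls without WTA 1, WTA 2, WTD 1 or WTD 2 (adjusted p up to 0.166 and 0.198), and without background correction the Nt5e value was -0.44 (adjusted p = 0.0577). Median centring and the absence of a filter also ended both calls with values at or below -1.10, and leaving out WTD 1 together with WTD 3 ended them at -1.11 and -0.98 (adjusted p = 0.176 and 0.190). Nt5e passed in the authors' values and with offset 50, at the smaller sizes of -0.55 and -0.69.

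Apart from Ak4 and Nt5e, no related gene passed the threshold in any comparison. Each gene was counted on its brightest tested probe. All 8 tested genes of the role named purine nucleotide cycle and AMP breakdown, Nt5e among them, then had values below 0 in both comparisons with WTA. The list is wider than its name, as it also holds Adk, Aprt and Hprt. Its medians were -0.17 in WTD and -0.18 in D7E, where 9018 of 17071 and 8508 of 16802 of all probes were below 0. Some genes of the list were close to 0, such as Adk (-0.08 and -0.03) and, in D7E, Aprt (-0.003). A dimmer Adk probe detected on all 8 arrays went the other way, with mean levels of 6.05 in WTA, 6.37 in WTD and 6.57 in D7E. Relative to the shift of all probes under median centring, 8 of the 8 were lower in WTD and 4 of the 8 in D7E. The AMP-activated kinase role lists the subunits of this AMP-sensing kinase together with Stk11, Strada and Cab39. Of its genes 7 of 8 were below 0 in WTD and 7 of 9 in D7E, and 7 and 4 were lower relative to that shift. They ranged from Prkaa2 (-0.79 and -0.61, limma adjusted p = 0.0959 and 0.184) to Strada (0.51 and 0.18, adjusted p = 0.347 and 0.776). The upstream kinase Stk11, the brightest of the role, differed by -0.16 and -0.19 (limma adjusted p = 0.785 and 0.642).

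Among carriers Slc25a5, the ADP/ATP exchanger made in many tissues, read 12.87 and 12.88 in WTA, 12.73, 12.65 and 12.49 in WTD and 12.64, 12.73 and 12.68 in D7E. The difference from WTA was -0.23 ± 0.18 in WTD and -0.20 ± 0.16 in D7E (SE; limma adjusted p = 0.668 and 0.622). Its probe was bright on every array, unlike that of Slc25a4.

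Nme1, a nucleoside diphosphate kinase that passes phosphate from ATP to other nucleotides, read higher than in WTA by 0.49 ± 0.19 in WTD and 0.48 ± 0.17 in D7E (SE; limma adjusted p = 0.303 and 0.219). Gamt, the last enzyme of creatine synthesis, differed by 0.25 ± 0.23 and 0.42 ± 0.20 (adjusted p = 0.735 and 0.343), by 0.05 and 0.22 without WTA 2 and by 0.45 and 0.64 without WTA 1. Mef2c, a muscle transcription factor, differed by -0.21 and -0.38 on its brightest probe (adjusted p = 0.698 and 0.364), by -0.15 and -0.27 on the second bright probe and by -0.34 and -0.44 on the other, while a dimmer probe read 0.39 and 0.33. With median centring Slc25a5, Stk11 and Mef2c read above 0 in D7E against WTA, but 0.12, 0.001 and -0.06 relative to the shift of all probes. Nme1 (1.07, adjusted p = 0.0114) and Gamt (0.94, adjusted p = 0.0215) then passed, at 0.76 and 0.63 relative to the shift, in a setting where 1616 of 1648 calls were higher.

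**Figure D4:**
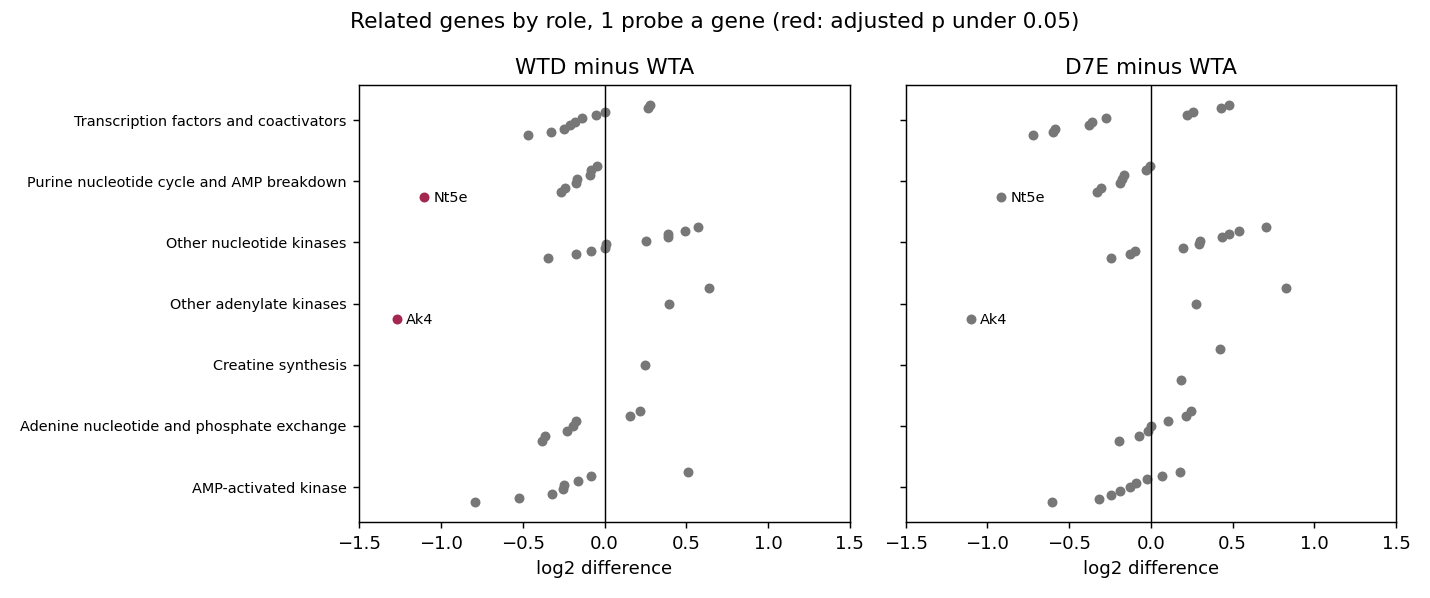
Log2 difference of each tested gene of the wider pathway (points, 1 probe per gene), by role on the vertical axis, for WTD minus WTA and D7E minus WTA. Red marks genes past the limma threshold, which are Ak4 and Nt5e in WTD. The 8 points of the role named purine nucleotide cycle and AMP breakdown, Nt5e among them, lie below 0 in both panels.

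The genes whose array profiles were most like those of Ckm and Ckmt2 were found by the root mean square distance of log2 values from each gene's own mean, over 8 arrays and 9908 probes. The nearest to Ckm was Crat, carnitine acetyltransferase, at 0.08, followed by Nfs1, a cysteine desulfurase of iron-sulfur cluster assembly, at 0.11 and Ift81, an intraflagellar transport protein, at 0.11, where the median probe was at 0.36. Crat was dim, at 4.70 to 5.60 over the arrays, and a profile flat across arrays would lie at 0.29 from Ckm. The nearest to Ckmt2 was Pgm1, phosphoglucomutase, at 0.12, then Arrdc4, an arrestin-family protein, and Vldlr, the very low density lipoprotein receptor, both at 0.19, where the median probe was at 0.56. A flat profile would lie at 0.52 from Ckmt2. Pgm1 read 12.43 and 12.18 in WTA, 11.26, 11.25 and 11.46 in WTD and 11.19, 10.99 and 11.86 in D7E. Like Ckmt2 it was highest in WTA, and D7E 3 was the highest of the other arrays.

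**Figure D5:**
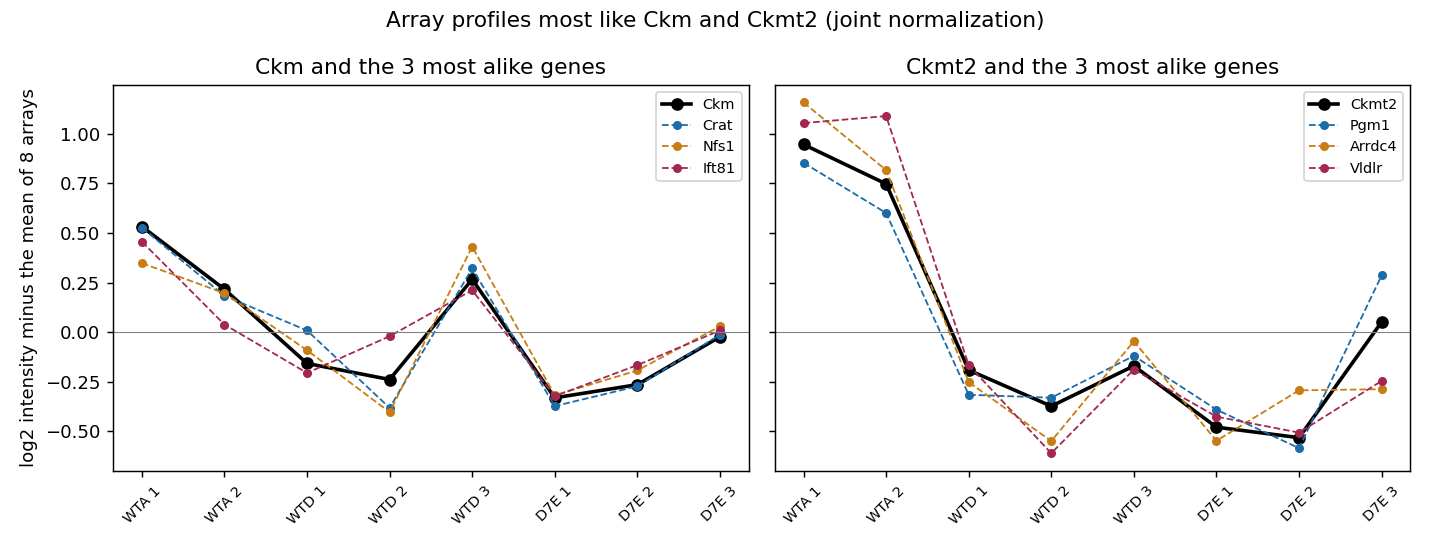
Log2 intensity minus the gene's mean over 8 arrays (vertical axis) for Ckm and Ckmt2 (black) and for the 3 genes nearest to each, with the arrays on the horizontal axis and lines that only join the points of a gene. Ckm has a second high point at WTD 3, where Ckmt2 does not, and both Ckmt2 and Pgm1 are high in WTA.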

How the data were processed

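RNA of IM2 myotubes was extracted with RNA Bee and labelled with the Illumina TotalPrep kit, per the labels' protocols. Per the file headers, each deposited raw table gives a linear signal intensity and a detection p-value per probe, without normalization, and the authors' own normalized table holds log2 values. No source used here names the scanner software. Both raw tables repeat the 2 WTA arrays value for value, and each array entered once. A WTA replicate 3 was not analysed here.

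WTD probe order was restored by matching pairs of WTA ranks, unique for all 45281 probes. The detection p-values of WTD 2, not used to match, afterwards correlated at -0.996 with its signals (rank correlation; 0.00216 as deposited). Those of WTD 1 and WTD 3 reached only -0.714 and -0.711, so estimates from 23132 background probes replaced them. The other 6 arrays gave equal calls by estimate and deposited p-value in 97.3% to 98.8% of probes.

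Intensities went through neqc (R 4.3.3, limma 3.58.1; normexp background from detection p-values, offset 16, quantile normalization), per raw table for comparisons with WTA and over 8 arrays for D7E against WTD. Differences come from these fits and array levels from the joint normalization. For probes of the 8 genes, group differences on both scales differ by at most 0.0294. Dim related probes can lie further apart, as Ak4 did in WTD against WTA (-1.27 in the fit, joint means of 4.64 and 6.04). Probes detected on at least 2 compared arrays were tested with lmFit and eBayes, two-sided, with no covariate, after tests on simulated data. The platform annotation gave 1 symbol for 34885 probes, several for 18 and none for 10378. Every probe of the 8 genes is reported, and of the related genes those past the threshold or else the brightest of each role. Some other related genes are named as examples or as the ends of a range. The members and lists were chosen with earlier results of these data known. Batches were not tested because no slide or date is named.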

Additional observations from a re-analysis of the deposited data

How the results depend on the processing

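Probes passing in WTD against WTA went from 210 to 0 with median centring, 16 without a filter on dim probes, 387 with a trended, robust variance and 15 without WTD 1 and WTD 3. In D7E against WTA they went from 71 (39 higher) to 12 without background correction, 1648 (1616 higher) with median centring, 0 without a filter and 272 with the robust variance. In D7E against WTD, from 1, they were 5 in a 3-group model, 15 with the robust variance, 2 with quantile normalization of log2 values, 98 without WTD 1 and WTD 3 and 0 elsewhere except under the replicate block. Leaving out 1 array gave 12 to 312, 0 to 244 and 0 to 73. Where limma called 0, the probes at an unadjusted p under 0.05 numbered 138 in WTD against WTA, 1626 to 4387 in D7E against WTA and 993 to 2938 in D7E against WTD. Leaving out WTD 1 with WTD 3, and quantile normalization of log2 values, were chosen after seeing the data.

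Member probes passing in WTD against WTA, 2 as reported, were 0 with median centring, without a filter or without WTD 1 and WTD 3, and 0 to 3 with 1 array left out. In D7E against WTA, also 2, they were 0 without background correction, in the authors' values or without a filter, 1 (Ckb) with median centring, 1 with offset 50 or detection on every array of a group (the second Ckmt2 probe each time), and 0 to 2 with 1 array left out. The Ckmt2 differences kept their sign in all alternatives of the comparisons with WTA and passed in 10 of 17 in WTD, and 6 and 8 of 16 in D7E.

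Deviations from the group means correlated at -0.36 to 0.21 between same-numbered arrays of different groups, and at -0.47 to 0.47 between differently numbered ones. Such deviations depend on each other in small groups, and those of the 2 WTA arrays are mirror images. The correlations therefore cannot decide whether the numbers pair the arrays. With the replicate block 539, 225 and 6 probes passed, and 4 member probes in WTD against WTA, those of Ckmt2 and Ampd1.

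Values near 0 changed sign. Ak1 in WTD against WTA was 0.00111 in the 3-group model, 0.000747 in the authors' values, 0.0352 under the block, 0.0782 without WTD 1 and WTD 3, and -0.0389 to 0.0351 with 1 array left out. Slc6a8 was 0.0368 under the block, 0.0354 without both and -0.14 to 0.0365. Median centring moved all probes by 0.307 in D7E minus WTA and 0.437 in D7E minus WTD, which the next values include. D7E minus WTA was 0.0106 for Ckm, 0.366 and 0.228 for Ampd1, 0.478 for Slc6a8, 0.427 for Slc25a5, 0.308 for Stk11 and 0.249 for Mef2c. D7E minus WTD was then 0.607 for Ckm, -0.00663 for Ckmt1, 0.701 and 0.653 for Ckmt2 and 0.0171 for Slc25a4, and without WTD 1 and WTD 3 it was 0.032 for Ckm, 0.0525 and 0.0621 for Ckmt2, -0.0519 for Slc6a8 and 0.195 for Slc25a4. With 1 array left out Slc6a8 in D7E against WTA was -0.0712 to 0.0601, and D7E minus WTD was -0.0124 to 0.0974 for Ckmt1, -0.261 to 0.0338 and -0.311 to 0.0107 for Ckmt2, -0.05 to 0.14 for Slc6a8 and -0.24 to 0.14 for Slc25a4. For the values other than those of median centring the cause was not tested. Ckmt1 and Slc25a4 lie near background, which limits their values.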
